A study of Ovis aries with 32 samples.

Results

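The liver libraries described here are those in which a small share of the uniquely aligned fragments fell outside annotated genes. They were selected by a value measured in the libraries themselves. For each liver file, the fragments that HTSeq placed on no annotated feature were taken as a percentage of these plus the counts on genes plus the ambiguous counts, and libraries under 34% were kept. This rule kept 10 of the 16 liver libraries and of the 32 libraries of the series. The group fed the control diet (CTRL) kept 4 lambs, numbers 1, 4, 5 and 7, and the group fed the essential oil supplement (EO) kept 6 lambs, numbers 9, 10, 11, 12, 13 and 15. They are called the low-share livers below, since the counter does not tell intergenic sequence from any other sequence outside the counted features.

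All animals were Appenninica × Sarda crossbred lambs. Both groups ate alfalfa hay and a commercial concentrate with a cyclodextrin carrier, and in EO the carrier was loaded with essential oils of cinnamon bark, of eucalyptus and of dill seed. Livers were sampled at slaughter, and poly-A RNA was sequenced as read pairs. The labels give ages of 165 to 190 days for the low-share lambs, without saying at which point of the trial. The study gives a similar age for the start of the feeding trial, which came before slaughter. Males and females were used in each diet group, but the labels do not give the sex of each lamb, so diet and the sex make-up of the 4 and 6 lambs kept cannot be told apart.

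The liver receives absorbed dietary compounds directly from the gut through the portal vein. Hepatocytes oxidise and conjugate foreign compounds, among them the terpenes and phenylpropanoids that make up essential oils, through cytochrome P450 and transferase enzymes. They also secrete most plasma proteins, including the fibrinogen chains and acute-phase proteins whose genes respond to inflammatory signals. The comparison of EO with CTRL asks whether the supplement moved the liver transcriptome, here with the spread that follows the share held low. Genes carry Ensembl identifiers in these files, and the reference table used here pairs none of them with a symbol, so the genes of these pathways and the liver cell type markers could not be looked up by name. Over 13016 genes kept in liver or muscle, log2 CPM of the low-share livers correlated among themselves at 0.93 or higher and with the muscle libraries of the same lambs at 0.355 to 0.411 (Pearson's r across genes, which are not independent).

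The shares of the 4 CTRL livers were 23.55% in lamb 1, 24.86% in lamb 7, 26.1% in lamb 5 and 31.97% in lamb 4. The 6 EO livers ranged from 24.43% in lamb 15 to 33.4% in lamb 13 with a median of 28.6%. The last libraries inside the threshold were CTRL lamb 4 and EO lamb 13, and the first outside it were CTRL lamb 6 at 37.04% and CTRL lamb 3 at 41.98%. The 6 livers left out, 4 CTRL and 2 EO, reached 48.61%. The groups therefore overlapped in the share, but 3 of the 4 CTRL livers lay below 5 of the 6 EO livers.

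**Figure D1:**
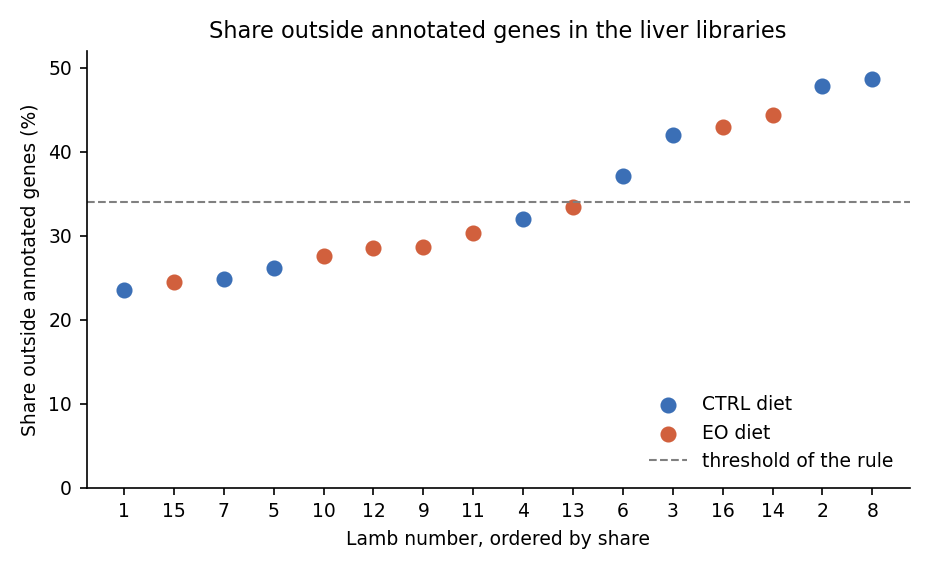
Share of uniquely aligned fragments outside annotated genes (y axis, percent) in each of the 16 liver libraries, ordered from lowest to highest (x axis, lamb number), with CTRL in blue, EO in orange and the 34% threshold dashed. The 10 libraries below the line lie between 23.55% and 33.4%, and the 6 above it between 37.04% and 48.61%.

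No library measure passed the test between the 2 diets after adjustment. Counts on genes were 4733861 ± 1552033 in CTRL (SD, n = 4, range 2893434 to 6689488) and 3380610 ± 1192609 in EO (SD, n = 6, range 2135245 to 4774431), which did not pass the test (exact permutation test over 210 splits, two-sided, p = 0.143, adjusted p = 0.381 over 8 measures). The share was 26.6% ± 3.7 in CTRL and 28.8% ± 3.0 in EO (SD, exact permutation test, p = 0.314, adjusted p = 0.444). The rule capped this same value in both diets, so the test cannot show that the diets were balanced in it. Age was 180.0 ± 9.4 days in CTRL and 173.2 ± 9.0 days in EO (SD, exact permutation test, p = 0.333, adjusted p = 0.444). The 10 most counted genes took 30.7% ± 1.1 of the counts in CTRL and 30.8% ± 1.4 in EO (SD, exact permutation test, p = 0.933). In the livers left out, these 10 genes took from 27.33% to 38.52%, against 28.48% to 32.71% in the low-share livers. Alignments that were not unique were taken as a percentage of themselves plus the counts on genes, on no feature and ambiguous. They made up 37.92% to 56.42% in the livers left out, against 23.94% to 35.34% in the low-share livers. The smallest p-value that 4 against 6 lambs allow is 0.00952. None of the 21 pairs of libraries of one diet looked like a repeat deposit, the chi-square over its degrees of freedom being 4.98 or higher. At least 1 count was found for 17507 of the 27054 genes, and 11760 genes had a count in all 10 low-share livers.

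Variation between lambs was lower in the low-share livers than in all livers, a comparison that is described and not tested because the 10 libraries are part of the 16 and were chosen by the axis along which livers vary most. The biological coefficient of variation, the relative spread of a gene's true level between lambs of one diet as estimated by edgeR, was 22.3% in the low-share livers and 39.4% in all 16, fitted on the same 11602 genes. It was 30.1% in the 6 livers left out. All 16 livers with the share as a covariate had 23.3%, so both ways of holding the share gave a similar spread. Muscle of the same 10 lambs had 19.8% over the 10346 genes that also passed the filter there. With every liver library thinned to the smallest total of 1460920 counts, the coefficients were 22.1% and 38.9%, so that most of the gap remained at equal depth.

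Gene by gene, the within-diet standard deviation of log2 CPM had a median of 0.345 in the low-share livers, 0.415 in the livers left out and 0.54 in all 16. For 10284 of 11602 genes (88.6%) it was lower in the low-share livers than in all 16, with a median ratio of 0.676, and for 2784 genes (24%) the ratio was below 0.5. A standard deviation over 1, which is more than a doubling on the log2 scale, was found for 158 genes in the low-share livers (1.36%). In all 16 it was found for 809 (6.97%). Within CTRL the median was 0.292 over the 4 low-share lambs and 0.547 over all 8. Within EO it was 0.344 over the 6 low-share lambs and 0.496 over all 8. Both diets thus varied less in the low-share libraries than over all 8 of their lambs. Against the livers left out this held for CTRL, at 0.39 over 4 lambs. For EO the livers left out had 0.32 over 2 lambs, which cannot be set against 0.344 over 6. A standard deviation from 2 lambs tends to come out too low.

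**Figure D2:**
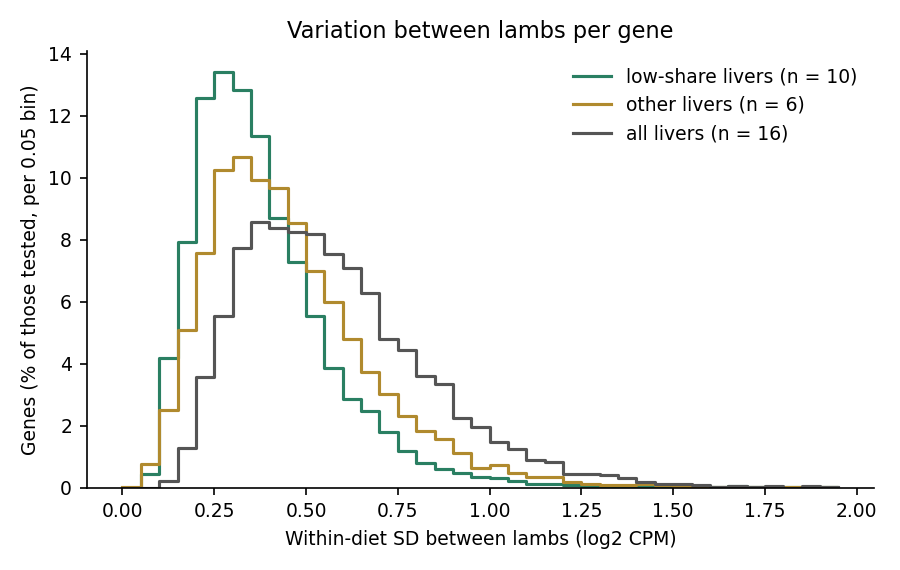
Distribution over 11602 genes (y axis, percent of genes per bin of 0.05) of the within-diet standard deviation between lambs in log2 CPM (x axis) for the 10 low-share livers, the 6 other livers and all 16. The curve of the low-share livers lies farthest left, with a median of 0.345 against 0.54 for all livers.

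The drop in spread was larger for well counted genes. With genes split into 4 groups of about 2900 by level, in the lowest group, at a median of 3.07 CPM, the median standard deviation was 0.506 in the low-share livers and 0.651 in all 16, a median ratio of 0.81. In the highest group, at a median of 65.3 CPM, the values were 0.258 and 0.45, a median ratio of 0.577.

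Profiles of single low-share livers were also more alike. Over the 45 pairs, the correlation of log2 CPM across genes ranged from 0.918 to 0.974 with a median of 0.956. The 15 pairs among the livers left out had a median of 0.941, and the 60 pairs of a low-share with another liver had a median of 0.881 and a lowest value of 0.792. Among the 158 genes with a standard deviation over 1, the lamb farthest from its diet mean was EO lamb 13 for 30 genes and EO lamb 11 for 25, and between 5 and 18 genes fell to each of the other 8 lambs. Lambs 13 and 11 had 2444341 and 2135245 counts on genes, of which the latter is the lowest total of the 10 libraries. Their root mean square distance from the mean of the other EO lambs was 0.575 and 0.581 on the log2 scale, against 0.386 to 0.49 for the other EO lambs. EO lamb 12, with 2415778 counts on genes, fewer than lamb 13, was at 0.484. Lambs 13 and 11 also had the highest shares of the EO livers kept, 33.4% and 30.32%. The part of depth or of the share in these distances was not tested.

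A few genes were on in some low-share livers and off in others. Of the genes with a mean of at least 10 CPM, the 5 with the largest within-diet standard deviation, from 2.32 to 3.67 on the log2 scale, all had a count of 0 in at least 1 liver. The most variable of them was at 0 in CTRL lamb 1 and at 124 CPM in CTRL lamb 4. Another was at 0 in EO lamb 11 and at 134 CPM in EO lamb 13. None of these 5 passed the test of diet, with edgeR adjusted p-values of 0.848 or higher. Being chosen for a large spread within diets, they had little prospect of passing it. The same genes had standard deviations from 1.89 to 3.95 in all 16 livers.

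The share still ordered the low-share livers. The first principal component of their log2 CPM values held 28.3% of the variance, against 52.9% for the first component of all 16 livers. It rose with the share over the 10 lambs (Pearson's r = 0.88, permutation p = 0.00128, adjusted p = 0.00768, Spearman's rho = 0.85, p = 0.00282, adjusted p = 0.0169, over 6 relations of 2 components with share, counts on genes and age). Without lambs 1 and 13, whose shares lay farthest from the median, r was 0.77. Within the 6 EO lambs r was 0.95 and rho 0.94 (exact permutation tests over 720 orderings, p = 0.00556 and p = 0.0167), and 4 CTRL lambs are too few for a value. The other 5 relations did not pass, with adjusted permutation p-values of 0.162 or higher. The share had been chosen for the rule as the axis that dominates these same liver data. Its p-values with the first component are therefore no independent support. The component lay at -19.4 ± 18.6 in CTRL and 12.9 ± 22.2 in EO (SD, exact permutation test, p = 0.0381, adjusted p = 0.305 over 8 measures).

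**Figure D3:**
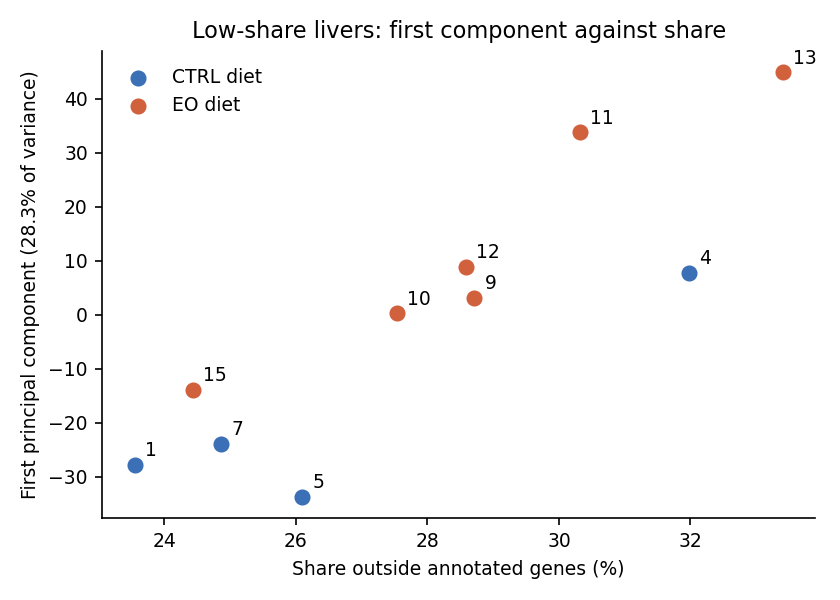
First principal component of log2 CPM in the 10 low-share livers (y axis, 28.3% of the variance) against the share outside annotated genes (x axis, percent), with lamb numbers, CTRL in blue and EO in orange. The component rises with the share (Pearson's r = 0.88), and EO lambs 13 and 11 lie highest.

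Single genes followed the share as well. In edgeR's quasi-likelihood test, with diet and share in the model, 591 of 11602 genes (5.09%) had a Benjamini-Hochberg adjusted p-value lower than 0.05 for the share, 324 rising and 267 falling with it. The smallest adjusted p-value was 0.0108, and the median size of the slope was 0.042 on the log2 scale per percentage point. DESeq2 gave 755 genes. This number rested on single lambs, since it was 1 without CTRL lamb 4, 1 without EO lamb 13 and 0 without EO lamb 15. Without EO lamb 9 or 12 it was 391 or 383, and without any 1 of the other 5 lambs it lay between 406 and 729. Without CTRL lamb 1, which had the lowest share of the 10, it was 439. The tests of single genes against the share have the same limit, since the share also chose the libraries. A threshold of 34% narrows the range of the share by construction. Within it the first component still followed the share, while the number of single genes doing so depended on which lambs were kept.

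No gene passed the test of diet. Of 11602 genes with at least 1 CPM in most of the low-share livers, 0 had an adjusted p-value lower than 0.05 between EO and CTRL (0%, edgeR's quasi-likelihood test, Benjamini-Hochberg adjusted), and the smallest was 0.385. DESeq2 and limma-voom also gave 0 genes, with smallest adjusted p-values of 0.0554 and 0.409. Before adjustment, 1381 genes (11.9%) had a p-value lower than 0.05, 679 higher and 702 lower in EO, and the corresponding numbers were 1236 by DESeq2 and 1326 by limma-voom. In all 16 livers the same test gave 0 of 11570 genes (0%), with 271 (2.34%) before adjustment. With the share as a covariate in all 16, it gave 0 genes again (0%) and 888 (7.68%) before adjustment. These 3 fits share libraries, so that their numbers are set side by side and are not independent of each other.

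**Figure D4:**
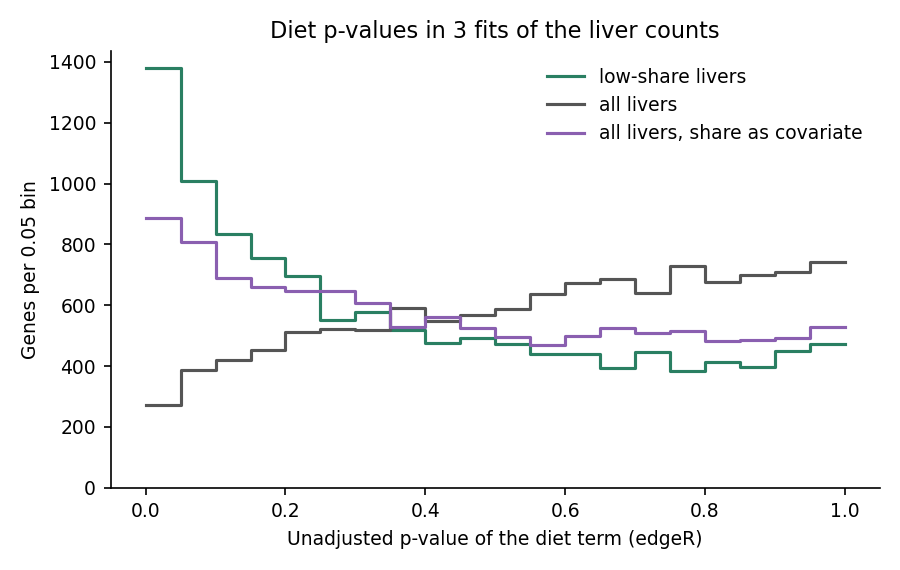
Number of genes (y axis, per bin of 0.05) by unadjusted p-value of the diet term (x axis, edgeR's quasi-likelihood test) in the 10 low-share livers, all 16 livers, and all 16 with the share as covariate. The first bin holds 1381, 271 and 888 genes, and no gene passes after adjustment in any of the 3 fits.

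The number of small p-values changed when the share was added to the model and when single lambs were left out. With the share added as a covariate within the low-share livers, it fell from 1381 to 1017 genes. Of the 1381 genes, 527 (38.2%) also had a p-value lower than 0.05 for the share. Without CTRL lamb 4, the CTRL liver with the highest share and the most counts on genes, it rose to 2164, and 2 genes passed the adjusted threshold. Without CTRL lambs 1, 5 or 7, which had lower shares, it was 918, 851 and 938. What part of these differences follows diet and what part the share was not tested beyond these fits. The diet groups did not overlap for 128 genes with every EO liver above every CTRL liver (1.1%) and for 119 genes with every EO liver below (1.03%).

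Differences between diets were small for most genes. Log2 fold changes had a median size of 0.221 in the low-share livers, 95% of genes lay below 0.697, and 128 genes (1.1%) exceeded 1. The median log2 fold change over all genes was 0.005. In all 16 livers the median size was 0.158. The 95% interval of a gene's log2 fold change reached a median of 0.478 to either side in the low-share livers, 0.59 in all 16 and 0.402 in all 16 with the share as covariate. For 8679 genes (74.8%) in the low-share livers the whole interval lay between -1 and 1, so that a doubling or halving by EO lay outside it. For the remaining genes the interval reached past a doubling, a halving or both. Precision followed the level, with a median standard error of 0.371 in the lowest of the 4 groups of genes by level and 0.166 in the highest. Small p-values before adjustment made up 6.41% of the lowest group and 15.8% of the highest.

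The 2 genes higher and the 2 lower in EO with the smallest p-values are given by their identifiers, and none of them passed the adjusted threshold. ENSOARG00000014336 had 9.12, 11.8, 6.85 and 12.8 CPM in CTRL lambs 1, 4, 5 and 7, and 14.8 to 21.8 CPM with a median of 20.2 in the 6 EO lambs. All EO livers were above all CTRL livers. The log2 fold change was 0.93 (SE 0.19, 95% interval 0.52 to 1.33, edgeR adjusted p = 0.385). Its log2 fold change was 0.63 (SE 0.231) in all 16 livers, which include the libraries in which it was picked. In the 6 livers left out it was 0.48 (SE 0.419), with a 95% interval of -0.43 to 1.39. For the other genes named for diet, the log2 fold changes in all 16 were 0.11, -0.25 and -0.36, in the order given below.

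ENSOARG00000008800 had 19.9, 18.7, 21.5 and 21.4 CPM in the same CTRL lambs, and 20.8 to 49.2 CPM with a median of 39.1 in EO. EO lamb 12 lay inside the CTRL range and the other 5 EO livers above it. The log2 fold change was 0.92 (SE 0.194, edgeR adjusted p = 0.385). Among the livers left out, its 4 CTRL libraries ranged from 40.5 to 72.7 CPM, above the CTRL livers that were kept, and the log2 fold change there was -0.08 (SE 0.547).

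ENSOARG00000004807 had 69.5, 45.4, 42.7 and 54.5 CPM in CTRL lambs 1, 4, 5 and 7, and 26.1 to 35.1 CPM with a median of 29.8 in EO. All EO livers were below all CTRL livers, with a log2 fold change of -0.77 (SE 0.158, edgeR adjusted p = 0.385). ENSOARG00000020472 had 37.1, 22.7, 41.4 and 30.9 CPM in CTRL, and 12.7 to 20.8 CPM with a median of 18.1 in EO, again without overlap. Its log2 fold change was -0.92 (SE 0.192, edgeR adjusted p = 0.385). Both genes were lower still in the livers left out, at 7.72 to 22.6 CPM in CTRL for ENSOARG00000004807 and at 2.7 to 7.82 CPM for ENSOARG00000020472. There the log2 fold changes were 0.46 (SE 0.448) and 0.56 (SE 0.483), with the opposite sign. With the share as a covariate among the low-share livers they were -0.72 and -0.76. In muscle of the same lambs, ENSOARG00000004807 was under the low-count filter and ENSOARG00000020472 had 0 to 1.91 CPM.

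**Figure D5:**
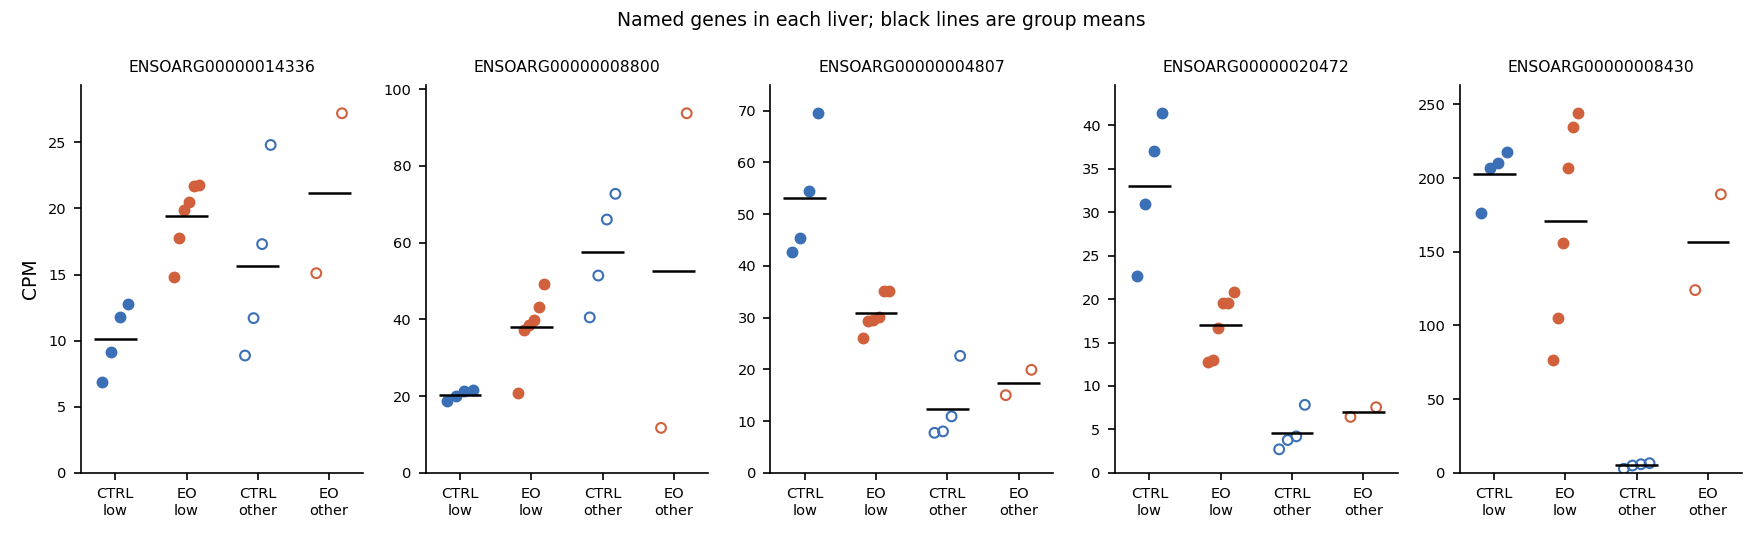
CPM (y axis, each panel from 0) of the 2 genes with the smallest p-values in each direction and of ENSOARG00000008430 in every liver, split by diet (CTRL blue, EO orange) and by share (filled points, the 10 low-share livers, and open points, the 6 other livers), with group means as black lines. In the first 4 panels the low-share diets differ by 0.77 to 0.93 on the log2 scale, and in the last panel the 4 other CTRL livers lie below 7 CPM while every other liver is above 76.

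The livers left out share no library with the low-share livers, but the same rule set them apart by their high share, so that the 2 sets differ in the share as well as in their lambs. Between their 2 EO and 4 CTRL lambs, 1 of 11108 genes (0.009%) passed the adjusted threshold, and 615 (5.54%) had a p-value lower than 0.05 before adjustment. Across 10707 genes tested in both sets, the log2 fold changes of the low-share and the other livers correlated at 0.088 (Pearson's r across genes, no test), and 53.9% had the same sign. Of the 1381 genes with small p-values in the low-share livers, 1311 were also tested in the others and 747 of them (57%) had the same sign there. With small p-values in both sets there were 69 genes, which is 5% of the first list and 11.2% of the second, and 37 of them had the same sign. With 2 EO lambs the 95% intervals in the other livers reached a median of 0.873 to either side, so that a likeness of small differences was not detectable there for single genes.

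The difference between the diets was compared directly between low-share and other livers as an interaction over all 16. One gene of 11602 (0.00862%) had an adjusted p-value lower than 0.05 in edgeR's test. It was ENSOARG00000008430, the same gene that passed in the livers left out, and it is named after its values were seen. Its interaction was 5.25 on the log2 scale (SE 0.475, edgeR adjusted p = 6.64e-06). In the low-share livers it had 207, 218, 210 and 176 CPM in CTRL lambs 1, 4, 5 and 7, and 76.5 to 244 CPM with a median of 181 in EO, with a log2 fold change of -0.24 (SE 0.264, edgeR adjusted p = 0.716). The 2 other EO livers had 124 and 189 CPM. The 4 other CTRL livers had 6.48, 4.9, 2.7 and 5.79 CPM in lambs 2, 3, 6 and 8. The gap thus set these 4 CTRL livers apart from the remaining 12, with no overlap, and the interaction rests on 2 sets of CTRL lambs. Whether it follows diet, the share or the lambs cannot be told apart. In muscle the gene had 2.56 to 8.41 CPM in the 10 low-share lambs, and 3.58, 3.68, 3.29 and 8.48 CPM in CTRL lambs 2, 3, 6 and 8.

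Muscle of the 10 low-share lambs gave 0 of 11760 genes (0%) between the diets by edgeR, and 536 (4.56%) before adjustment, with 0 and 488 by DESeq2. Across 10346 genes tested in both tissues, the log2 fold changes of liver and muscle correlated at 0.279 (Pearson's r across genes, no test, both from the same lambs), and 61.2% had the same sign. Among the 1237 of the 1381 liver genes with small p-values that were also tested in muscle, 900 (72.8%) had the same sign there. Small p-values in both tissues were found for 48 genes, 3.48% of the liver list and 8.96% of the muscle list, of which 44 had the same sign. Liver and muscle come from the same 10 animals, so a difference between the lambs of the diets, of any origin, enters both tissues.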

How the data were processed

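The authors deposited raw counts per Ensembl gene for each library, made, per the submitters' processing notes, with Trimmomatic 0.33 for trimming, STAR 2.4.0.1 for alignment to the Ensembl Ovis aries v.3.1 genome and HTSeq 0.6.1 for counting. Each file held 27054 genes and 5 HTSeq counters. Samples were grouped by tissue and diet from their titles. The 10 low-share livers had 2135245 to 6689488 counts on genes (median 4249464.5). Each library is 1 lamb.

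The rule, the tests and the gene lists were chosen with earlier results of these data known. Genes with at least 1 CPM in most of the libraries of a fit were kept, which held 99.82% of the counts on genes. Diet was tested with edgeR 4.0.16 (TMM, glmQLFit and glmQLFTest, R 4.3.3), with Benjamini-Hochberg adjustment at 0.05. The study's terms for sex could not be fitted. Alternatives were DESeq2 1.42.0, limma-voom (limma 3.58.1), other filters, normalizations, covariates and thresholds, thinned counts and leaving out each lamb. Principal components and standard deviations used log2 CPM with a prior count of 2. Single values were compared by exact permutation tests, and correlations by 100000 permutations (Python 3.11.15, SciPy 1.17.1). Fits were tested on simulated data. Named genes were, without symbols, the 2 higher and 2 lower with the smallest p-values. CPM values of named genes were scaled over all 16 livers. Gene lists and markers needed symbols, and 0 identifiers matched, so they were not run.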

Additional observations from a re-analysis of the deposited data

Results flagged for a closer look

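ENSOARG00000008430 had an interaction of diet and share class of 5.25 on the log2 scale (edgeR adjusted p = 6.64e-06), that is, the difference between EO and CTRL was not the same in the low-share and the other livers. Every one of the 4 other CTRL livers lay below all 12 remaining livers, and the 2 other EO livers lay inside the range of the low-share livers. The interaction therefore rests on a gap between 2 sets of CTRL lambs. Whether the gap follows diet, the share or the lambs themselves cannot be told apart in this design. The sex of these lambs is not given in the labels, and its part was not tested. With the share as a number in place of the 2 classes, the interaction was 0.23 per percentage point and did not pass (adjusted p = 0.552).

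CTRL lamb 4 lay far from the other low-share CTRL lambs on the second principal component of the low-share livers, at 12.9, where lambs 1, 5 and 7 lay at 0.7, -0.9 and 0.8. Its library had the most counts on genes of the 10, 6689488, and the highest share of the CTRL livers kept, 31.97%. Lamb 4 was 1 outlying value among 39 groups examined, where chance gives about 1 in 20 groups. Over all 10 low-share livers the second component ran from -47 in EO lamb 11 to 26 in EO lamb 13, and lamb 4 lay inside this range.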

How the results depend on the processing

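The number of diet genes in the low-share livers stayed at 0 under DESeq2, limma-voom, the other normalizations, filters and dispersion prior, age or share as covariate, share thresholds of 30% and 40%, and thinned counts, and without 9 of the 10 lambs, with a range of 0 to 2 over the lambs left out. The 2 genes, without CTRL lamb 4, were ENSOARG00000011855 and ENSOARG00000014648, named after their values were seen, with log2 fold changes of -1.09 and -2.72 (both edgeR adjusted p = 0.0441). Under a threshold of 40%, which adds CTRL lamb 6, genes with an unadjusted p-value lower than 0.05 fell from 1381 to 440, and under 30% there were 1537. The 4 genes named for diet kept their sign in all 23 alternatives, which is little support, since they were chosen for small p-values in these same libraries. Under the 40% threshold ENSOARG00000008800 went from 0.92 to 0.38 on the log2 scale. The coefficient of variation of 22.3% became 18.9% under 30% and 26.2% under 40%, and ranged from 21.3% to 23.1% over the lambs left out. The interaction of diet and share class gave 5 genes by DESeq2 and 0 with the share as a number, where ENSOARG00000008430 was no longer called, and 1 to 2 genes without each other liver, the higher number without EO lamb 16. The other livers gave 1 to 2 genes without each lamb, the higher number without CTRL lamb 2 or EO lamb 14. A lone EO lamb was then assumed to vary like the CTRL lambs. Muscle gave 0 genes under DESeq2 and without each lamb. Genes following the share, a result added after the data were seen, ranged from 0 to 729 over the lambs left out and numbered 755 by DESeq2. The cause of these changes was not tested. No paired analysis was possible because CTRL and EO are different lambs with different numbers. Results on gene lists and markers were not run, since no identifier matched a symbol. With 4 and 6 lambs, none of the 128 genes with a log2 fold change over 1 in size passed the adjusted threshold. Changes of a doubling or more could therefore also go undetected, and not only in genes with low counts.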
